A study of Mus musculus with 23 samples.

Results

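The question was which genes responded to spaceflight in one muscle and not, or not equally, in another. The comparison was the difference between 2 flight responses, the response of the *longissimus dorsi* (LD), a muscle of the back, minus the response of the tongue (TN). Each response was BF minus BG on the log2 scale, so the comparison was (BF LD minus BG LD) minus (BF TN minus BG TN). It used 16 of the 23 arrays of the series, namely 5 BF LD, 5 BG LD, 3 BF TN and 3 BG TN arrays. All animals were male C57BL/N6 mice according to the design text, although the sample labels write the strain as C57/BL6. Bion Flown (BF) mice spent 30 days in microgravity in the Bion M1 biosatellite. Bion Ground (BG) mice lived on the ground in the same habitat, so that BF minus BG sets flight against the same cage at normal gravity. Flight Control (FC) mice lived in a standard animal facility, and their 5 LD and 2 TN arrays entered the model and served as context. The BF muscles were taken after landing, so that flight, re-entry and the time back on the ground cannot be told apart. It is not stated if LD and TN samples were taken from the same animals.

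The LD is a paraspinal muscle that helps to stabilise the spine, and postural muscles can lose mass when load is removed. The study reported no change in LD fibre cross-sectional area after flight, in a low number of animals. It describes the mouse LD as mainly fast, with little atrophy foreseen. In unloaded muscle, FoxO transcription factors switch on genes of protein breakdown, among them E3 ubiquitin ligases, which tag proteins for the proteasome, and glucocorticoids drive many of the same genes. The tongue is a striated muscle that keeps working during feeding and drinking, and it is covered by a stratified epithelium whose basal cells divide throughout life.

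The 23 arrays had medians of 6.42 to 6.61 on the log2 scale, and their number limits the precision of every value. The labelled tissues carried their defining transcripts. The mean log2 value of the muscle fibre markers was 13.90 to 14.08 on the LD arrays of BF and BG mice and 12.69 to 13.47 on their TN arrays. The Hox genes of the trunk averaged 6.58 to 7.47 on all LD arrays and 5.36 to 5.65 on all TN arrays. Oral epithelium markers were at 4.95 to 5.24 in LD. In TN they were at 11 to 11.17 in BF, 11.11 to 11.33 in BG and 11.24 on both FC arrays. The TN samples therefore held epithelium as well as muscle. Macrophage markers averaged 6.43 to 7.69 in BF LD and 7.05 to 9.08 in BG LD, and the highest value was that of BG LD replicate 5, which also lay farthest from its group (SD around the group mean 0.356, against 0.103 to 0.254 on the other 22 arrays).

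Of 22626 probe sets, 39 (0.172%) passed an adjusted p of 0.05 in the difference between the muscles (limma, Benjamini-Hochberg over all probe sets), and 20 of them (0.0884%) also differed by more than 2-fold, that is by more than 1 on the log2 scale. Of the 39, 36 were positive (0.159%), which means that the response was more positive in LD than in TN, and 3 were negative (0.0133%). Within LD, 2318 probe sets (10.2%) passed the adjusted p, 1451 of them (6.41%) higher and 867 (3.83%) lower with flight, and 96 (0.424%) passed both criteria. Within TN, 187 (0.826%) passed the adjusted p, 80 higher (0.354%) and 107 lower (0.473%), and 50 (0.221%) passed both criteria. At an unadjusted p of 0.05 the difference was passed by 2731 probe sets (12.1%). The median standard error was 0.117 for the response in LD, 0.151 in TN and 0.191 for the difference, whose 95% confidence interval typically reached 0.40 to either side. The adjusted p was passed at an unadjusted p of 7.98e-05 or less, which at the median standard error takes a difference of 0.92, and the smallest difference that passed was 0.69. The median difference over all probe sets was -0.03.

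The 39 probe sets held 28 single genes, while 3 probe sets name several genes and 4 name none. Sorted by the single-muscle responses, 29 passed the adjusted p in LD only, 8 in TN only, and 2 in both with opposite signs. In the LD group 28 differences were positive and 1 was negative. The 28 positive ones lay between 0.69 and 2.27 (median 0.96). Their response in LD was 0.32 to 2.36 (median 0.64), and their response in TN, which did not pass the adjusted p in any of them, was -0.57 to 0.41 (median -0.31). The response was positive in LD and negative in TN in 23 of the 28. All 5 BF LD arrays were above all 5 BG LD arrays in 25 of the 28, a pattern found in 4.27% of all probe sets. All 3 BF TN arrays were below all 3 BG TN arrays in 18 of the 28, a pattern found in 8.84% of all probe sets, and 17 of the 28 had an unadjusted p under 0.05 in TN. The 95% confidence interval of the TN response held 0 in 11 of the 28. These counts describe probe sets that the difference itself selected.

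**Figure D1:**
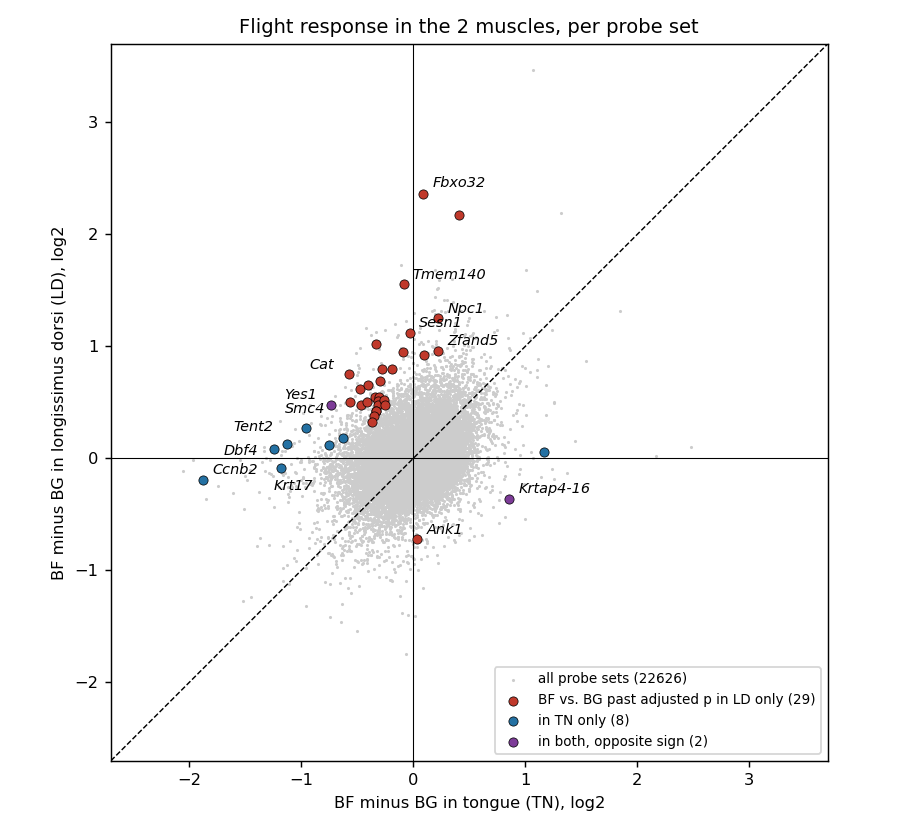
Response to flight (BF minus BG, log2) of each of the 22626 probe sets, with TN on the x axis and LD on the y axis; the dashed line marks equal responses, and colours mark the 39 probe sets past an adjusted p of 0.05 in the difference. The 29 probe sets past in LD only lie along the vertical axis or to its left, apart from *Ank1* below 0 in LD, and the 8 past in TN only lie along the horizontal axis.

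The largest difference among the probe sets that passed was that of *Fbxo32*, which encodes atrogin-1, the muscle-specific subunit of an E3 ubiquitin ligase of muscle wasting. Both of its probe sets passed. With probe set 1448747_at the 5 BF LD arrays were at 13.30, 13.34, 13.54, 13.50 and 13.38, against 11.29, 11.56, 11.10, 10.90 and 11.35 on the BG LD arrays. In tongue the same probe set was at 11.73, 11.06 and 11.47 in BF, against 11.17, 10.85 and 11.03 in BG. The LD groups were far apart without overlap, and the TN groups overlapped. The response was 2.17 in LD and 0.41 in TN, a difference of 1.76 ± 0.296 (SE, adjusted p = 0.0195, limma). The second probe set, 1417522_at, gave 2.36 in LD, 0.09 in TN and a difference of 2.27 ± 0.401 (adjusted p = 0.026). The 5 FC LD arrays, at 10.71 to 11.98, were all below the BF LD arrays on probe set 1448747_at. On the same probe set the FC TN arrays, at 10.64 and 10.65, were below every BF TN and BG TN array. Set against FC, the flown tongue was therefore higher as well.

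*Sesn1* encodes sestrin 1, a stress protein induced by FoxO factors and p53 that restrains mTORC1. Its values were 10.21, 10.33, 10.25, 10.59 and 10.03 in BF LD, against 9.11, 9.13, 9.14, 9.31 and 9.11 in BG LD. They were 10.13, 9.72 and 9.92 in BF TN, against 10.10, 9.78 and 9.98 in BG TN. Every BF LD array exceeded every BG LD array, and the TN groups covered the same range. The response was 1.12 in LD and -0.03 in TN, and the difference was 1.15 ± 0.212 (SE, adjusted p = 0.0287). The probe sets of *Sesn1* numbered 3 and gave differences of 1.15 to 1.59, the other 2 with adjusted p-values of 0.0861 and 0.063. On the first probe set the FC LD arrays, at 8.87 to 9.69, were all below the BF LD arrays. The FC TN arrays, at 9.59 and 9.62, were below every BF TN and BG TN array.

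*Tmem140*, a gene for a transmembrane protein, followed the same pattern with a wider scatter. BF LD arrays read 10.46, 9.86, 10.77, 10.54 and 10.22, and BG LD arrays read 9.25, 8.65, 8.89, 9.08 and 8.20. In tongue the values were 8.06, 7.47 and 7.44 in BF and 8.02, 7.45 and 7.77 in BG. The LD groups were separate and the TN groups were interleaved. The difference was 1.64 ± 0.304 (SE, adjusted p = 0.0287), from 1.56 in LD and -0.09 in TN. The FC LD arrays, at 8.46 to 8.94, were all below the BF LD arrays. The FC TN arrays, at 6.72 and 7.02, were below every BF TN and BG TN array.

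The promoters of *Sesn1* and *Tmem140* are shown because they were the only promoters of the genes with a response in LD alone that held the letters of the FoxO recognition site, among the 14 such genes with a promoter to search. No promoter of *Fbxo32* was searched. The sequences are from RefSeq, build GRCm38.p6, and run 5′ to 3′ on the strand of the gene. Each covers 250 bases before to 50 bases after the first transcription start listed for the gene. Other starts were not searched for any gene, and *Sesn1* had 2 listed. Capitals mark GTAAACA, which reads TGTTTAC on the printed strand. Sesn1 lies at chr10:41810324-41810623 (+ strand) and Tmem140 at chr6:34862896-34863195 (+ strand).
Sesn1: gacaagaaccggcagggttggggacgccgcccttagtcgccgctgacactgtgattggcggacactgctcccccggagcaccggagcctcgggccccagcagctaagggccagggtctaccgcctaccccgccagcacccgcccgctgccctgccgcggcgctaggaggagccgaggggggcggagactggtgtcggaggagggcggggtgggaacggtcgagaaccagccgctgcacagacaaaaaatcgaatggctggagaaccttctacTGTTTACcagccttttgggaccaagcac
Tmem140: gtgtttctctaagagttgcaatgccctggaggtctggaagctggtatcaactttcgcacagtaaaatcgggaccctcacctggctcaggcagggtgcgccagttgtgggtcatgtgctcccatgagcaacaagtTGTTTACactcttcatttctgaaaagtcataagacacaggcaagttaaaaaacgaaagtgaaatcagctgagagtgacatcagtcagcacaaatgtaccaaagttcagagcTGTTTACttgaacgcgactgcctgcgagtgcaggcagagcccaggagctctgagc
A promoter was available for 20 of the 28 genes past the adjusted p and for 9887 measured genes, and both strands were searched. GTAAACA was in 265 of the 9887 promoters (2.68%) and in 2 of 14 of the genes with a response in LD alone. A match is a run of letters and not a shown binding site, and no match says only that the letters are not in this window.

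*Npc1* encodes the lysosomal membrane protein that exports cholesterol. It read 9.16, 8.88, 9.39, 9.0 and 8.82 in BF LD, against 7.79, 7.80, 7.77, 7.84 and 7.79 in BG LD. It read 7.58, 7.17 and 7.20 in BF TN, against 7.09, 7.16 and 7.02 in BG TN. The BG LD arrays were nearly identical, and each BF LD array was about 1 log2 unit or more above them, while the BF TN arrays lay slightly above the BG TN arrays. The response was 1.25 in LD and 0.22 in TN, and the difference of 1.03 ± 0.213 (SE) had an adjusted p of 0.0463, next to the threshold. Of the probe sets just inside it, *Txnl1* had a difference of 0.69 at an adjusted p of 0.0459. The first ones outside were a second probe set of *Tbk1* (0.84) and *Abi1* (0.93), both at 0.0515.

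For several genes the response in LD was moderate and the tongue moved the other way without passing the test there. *Cat* encodes catalase, which breaks down hydrogen peroxide in peroxisomes. With probe set 1416430_at it read 10.52, 10.76, 11.01, 10.75 and 10.97 in BF LD, against 9.68, 10.50, 10.27, 10.26 and 10.05 in BG LD. In tongue it read 9.62, 9.56 and 9.48 in BF, against 9.95, 10.05 and 9.87 in BG. Neither pair of groups overlapped, BF being above BG in LD and below BG in TN. The response was 0.65 in LD and -0.40 in TN (adjusted p in TN 0.232), and the difference was 1.05 ± 0.206 (SE, adjusted p = 0.0382). The other probe set, 1416429_a_at, gave 1.32 (adjusted p = 0.0451). *Gtf2a1*, a subunit of the general transcription factor TFIIA, had responses of 0.62 and -0.47 in LD and TN on 1 of its 3 probe sets, a difference of 1.09 ± 0.222, and differences down to -0.13 on the others. *Mindy1*, a deubiquitinase, had 0.80 and -0.28, a difference of 1.07 ± 0.209 on 1 probe set and 0.89 on a second one that also passed, within a range of 0.51 to 1.07 over 4. Another 2 genes past 2-fold, named after their values were seen, were *Rnf138*, an E3 ubiquitin ligase of DNA repair (0.50 in LD, -0.56 in TN, difference 1.06 ± 0.174, adjusted p = 0.0195), and *Mettl7a1* (0.95 in LD, -0.09 in TN, difference 1.04, adjusted p = 0.0451, with -0.24 and 0.97 on its other probe sets).

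Of the 39 probe sets, 19 passed the adjusted p with a difference of less than 2-fold, and the genes named from them were chosen after their values were seen. *Zfand5*, whose protein binds ubiquitin and the proteasome, read 12.86, 12.73, 12.82, 12.89 and 12.84 in BF LD, against 11.81, 11.85, 12.07, 11.93 and 11.66 in BG LD. It read 12.02, 11.82 and 11.90 in BF TN, against 11.70, 11.66 and 11.72 in BG TN. BF was above BG in both muscles without overlap, but by 0.96 in LD and 0.22 in TN, a difference of 0.74 ± 0.122 (SE, adjusted p = 0.0195). *Ank1*, the gene of ankyrin 1, was the only probe set of the 39 that was lower with flight in LD and passed in LD alone. It read 9.14, 9.37, 9.22, 9.15 and 9.19 in BF LD, against 10.18, 9.85, 9.93, 9.84 and 9.87 in BG LD, and stayed between 7.90 and 8.29 on the 6 tongue arrays of BF and BG. Its response was -0.72 in LD and 0.04 in TN, a difference of -0.76 ± 0.140 (adjusted p = 0.0287). The remaining genes past in LD alone were *Etv3*, *Psip1*, *Ccng2* (cyclin G2), *Wdr26* on 2 probe sets, *Syne2*, *Txlng*, *Tbk1*, *Hnrnpk* and *Txnl1*, with differences of 0.69 to 0.99. All of them were positive in LD and negative in TN. For *Zfand5*, *Ank1*, *Etv3*, *Psip1*, *Wdr26*, *Tbk1* and *Hnrnpk* the gene had a brighter probe set that was not among the 39. Their values therefore hold for the probe set that passed and not for the gene as a whole.

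**Figure D2:**
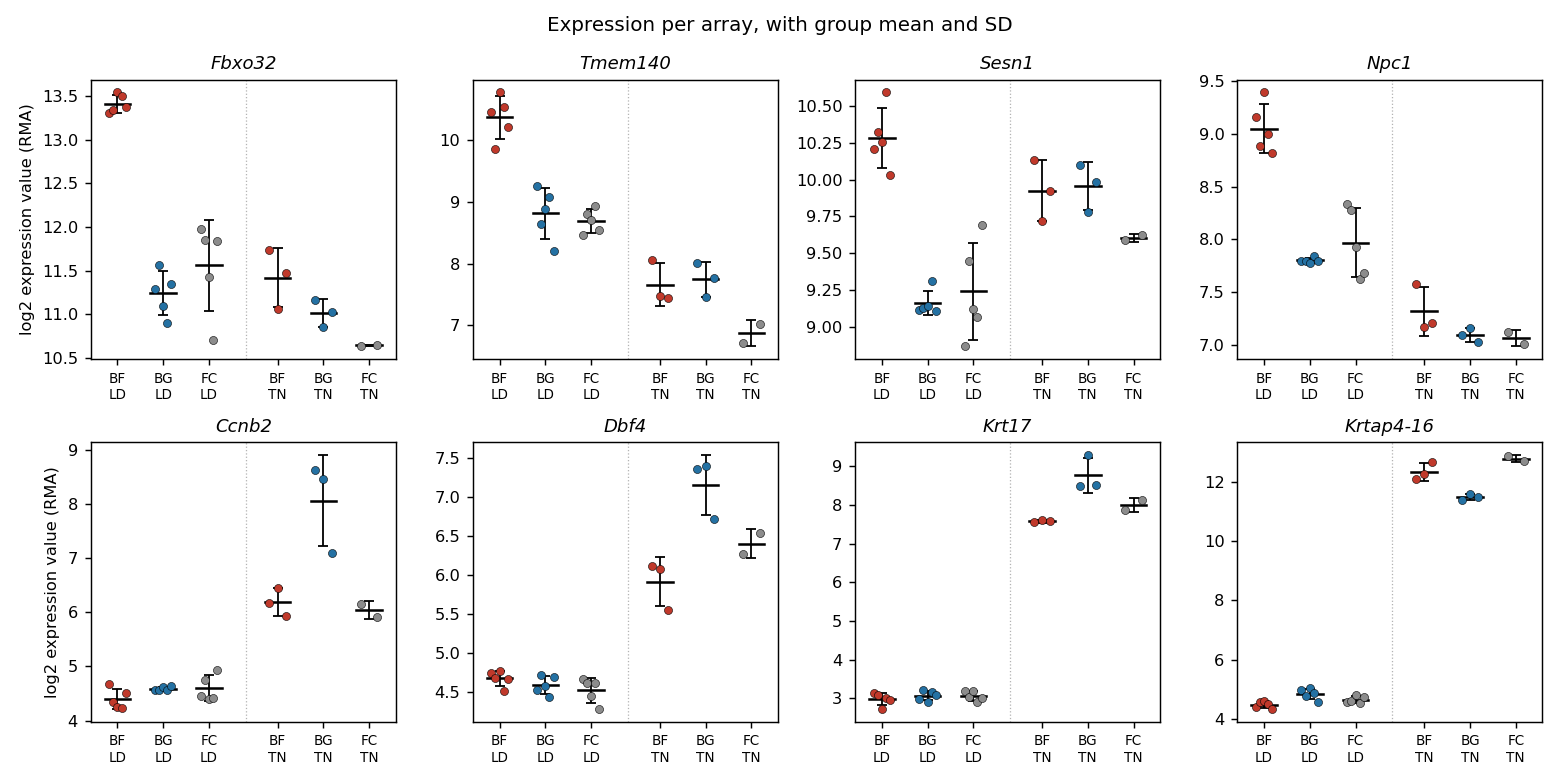
Log2 expression value (RMA) per array for 4 genes whose response passed in LD (*Fbxo32* probe set 1448747_at, *Tmem140*, *Sesn1*, *Npc1*) and 4 whose response passed in TN (*Ccnb2*, *Dbf4*, *Krt17*, *Krtap4-16*, which also passed in LD), with group mean and SD (n = 5 per LD group, 3 for BF TN and BG TN, 2 for FC TN). In the upper row BF LD stands above BG LD and FC LD, and in the lower row BF TN and FC TN stand on the same side of BG TN.

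The responses in tongue alone were mostly decreases, and *Ccnb2*, *Dbf4*, *Smc4*, *Tent2* and *Krt17* passed the 2-fold criterion. The LD arrays of BF and BG had medians of 6.42 to 6.53 and lowest values of 2.34 to 2.49. On each of these arrays *Ccnb2*, *Dbf4*, *Tent2* and *Krt17* were below the median. A decrease had less room to show there, so tongue alone means only that the response in LD did not pass. In the TN group of 8 probe sets 7 had a positive difference. Their responses were between -0.19 and 0.27 in LD and between -1.88 and -0.63 in TN. In all 7 of them the BF TN arrays were below the BG TN arrays without overlap, a pattern found in 8.84% of all probe sets. These 7 were sorted by passing in TN, so the separation follows in part from how they were chosen. *Ccnb2* encodes cyclin B2, a partner of the kinase Cdk1 in mitosis. It read 4.67, 4.34, 4.25, 4.23 and 4.51 in BF LD, against 4.56, 4.56, 4.63, 4.57 and 4.64 in BG LD. In tongue it read 6.18, 6.45 and 5.93 in BF, against 8.63, 8.47 and 7.09 in BG. One BG TN array, replicate 3, was clearly below the other 2 and still above every BF TN array. The response was -0.19 in LD and -1.88 in TN (adjusted p in TN 0.00111), and the difference was 1.69 ± 0.320 (SE, adjusted p = 0.0357). On the FC TN arrays *Ccnb2* was at 6.16 and 5.92, in the range of BF TN.

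*Dbf4*, the regulatory subunit of the Cdc7 kinase that starts DNA replication, was between 4.43 and 4.77 on all LD arrays of BF and BG. It read 6.11, 6.08 and 5.55 in BF TN, against 7.36, 7.40 and 6.71 in BG TN. Its response was 0.08 in LD and -1.24 in TN, a difference of 1.32 ± 0.208 (adjusted p = 0.0195), whereas its second probe set gave -0.21. *Smc4*, a subunit of condensin, read 7.04, 7.49 and 7.17 in BF TN, against 8.48, 8.23 and 7.85 in BG TN. The difference was 1.23 ± 0.203 (adjusted p = 0.0195), with 0.27 in LD and -0.95 in TN, and its 3 probe sets gave 0.50 to 1.23. *Tent2*, a cytoplasmic poly(A) polymerase, read 4.77, 5.39 and 4.66 in BF TN, against 6.23, 6.16 and 5.81 in BG TN. Its difference was 1.26 ± 0.258 (adjusted p = 0.0451), with 0.13 in LD and -1.13 in TN, and 0.20 on its second probe set. *Krt17*, a keratin of stratified epithelia and their appendages, was between 2.73 and 3.21 on every LD array of BF and BG, and read 7.55, 7.62 and 7.58 in BF TN, against 8.49, 9.29 and 8.52 in BG TN. The difference was 1.10 ± 0.202 (adjusted p = 0.0287), with responses of -0.09 in LD and -1.18 in TN, and a second probe set gave 0.18. *Usp45*, a deubiquitinase named after its values were seen, had 0.19 in LD, -0.63 in TN and a difference of 0.82. This was not the brightest probe set of *Usp45*, and the brightest one did not pass. For *Dbf4*, *Tent2*, *Smc4* and *Krt17* the BF TN and BG TN arrays did not overlap, and the FC TN arrays were at 6.27 and 6.54, at 5.53 and 5.64, at 8.01 and 8.01, and at 7.88 and 8.12, each pair above the highest BF TN array of its gene.

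In these bulk samples fewer cells of a type and less RNA per cell cannot be told apart. The mean log2 value of the 36 mitosis genes measured was 4.74 to 5.01 on the LD arrays of BF and BG. This was below the medians of those arrays, where a decrease had less room to show. In tongue the mean of these genes was 5.52 to 6.02 in BF, 6.14 to 6.87 in BG and 5.80 to 5.85 in FC. There BF and BG were apart and FC was in the range of BF. The oral epithelium markers, at 11 to 11.17 in BF TN and 11.11 to 11.33 in BG TN, overlapped between the groups. Whether the amount of epithelium in a tongue sample had a part in the differences of *Ccnb2*, *Dbf4*, *Smc4*, *Tent2* and *Krt17* was not tested.

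The *Ccnb2* promoter is shown because it held both kinds of element searched for in genes of cell division, the CCAAT box and the cell cycle element TTTGAA, here in capitals. It lies at chr9:70421505-70421804 on the - strand of build GRCm38.p6 and is from RefSeq.
Ccnb2: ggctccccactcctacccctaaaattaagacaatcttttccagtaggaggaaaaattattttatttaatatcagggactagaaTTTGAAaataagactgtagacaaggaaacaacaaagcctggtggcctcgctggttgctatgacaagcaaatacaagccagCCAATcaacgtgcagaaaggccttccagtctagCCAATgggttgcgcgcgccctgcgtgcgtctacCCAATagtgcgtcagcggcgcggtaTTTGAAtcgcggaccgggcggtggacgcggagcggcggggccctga
CCAAT was in 38.1% of the 9887 promoters, in 5 of the 14 promoters of genes with a response in LD alone and in 1 of the 4 of genes with a response in TN alone. TTTGAA was in 13% of all promoters, in 1 of the 14 and in 2 of the 4, those of *Ccnb2* and *Dbf4*.

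The response had opposite signs and passed in both muscles for 2 genes. *Yes1*, a kinase of the Src family, read 6.35, 6.19, 6.35, 6.09 and 6.20 in BF LD, against 5.79, 5.56, 5.60, 5.93 and 5.89 in BG LD. It read 6.28, 7.22 and 6.58 in BF TN, against 7.51, 7.65 and 7.11 in BG TN. BF LD was above BG LD throughout, and BF TN was below BG TN except for 1 array, replicate 2, which lay within the BG range. The responses were 0.48 in LD (adjusted p = 0.0271, limma) and -0.73 in TN (adjusted p = 0.0474, next to the threshold). The difference was 1.21 ± 0.221 (SE, adjusted p = 0.0287), while the second probe set gave 0.36.

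*Krtap4-16*, a keratin-associated protein gene, had the smallest adjusted p of all probe sets, and its difference was negative. It read 4.42, 4.56, 4.60, 4.51 and 4.34 in BF LD, against 4.96, 4.77, 5.03, 4.88 and 4.59 in BG LD. It read 12.09, 12.24 and 12.67 in BF TN, against 11.38, 11.58 and 11.46 in BG TN. BF LD was below BG LD except for replicate 5 of BG LD, and BF TN was above BG TN without overlap. The responses were -0.36 in LD and 0.86 in TN, and the difference was -1.22 ± 0.171 (SE, adjusted p = 0.00801). The LD values were below the medians of those arrays, 6.42 to 6.53. Without detection calls it is not known if the gene was expressed in LD, so the response there may be a shift at background level. Keratin-associated protein genes form a family of similar sequences, so the probe set may also read other members. The remaining negative probe set names the cytochrome P450 genes *Cyp2a5* and *Cyp2a4* together, with 0.05 in LD, 1.17 in TN and a difference of -1.11 (adjusted p = 0.0451).

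The same difference between the muscles was also formed against the FC mice, and between the FC mice and the BG mice. These comparisons share the BF or the BG arrays with the one above, so their values are given side by side only. Against FC, 15 probe sets (0.0663%) passed the adjusted p, and between FC and BG 68 (0.301%) did. The 39 probe sets had differences against FC of -0.53 to 1.26, and 1 of them passed, 1420494_x_at, which names no gene (0.96, adjusted p = 0.0422). *Fbxo32* had 1.07 with probe set 1448747_at (adjusted p = 0.363), *Sesn1* 0.72 (0.384), *Npc1* 0.83 (0.316) and *Smc4* 0.95 (0.159). In FC minus BG, 4 of the 39 passed. They were *Ccnb2* (2.03, adjusted p = 0.0088), *Krtap4-16* (-1.49, adjusted p = 0.000334), *Ccng2* (0.96, adjusted p = 0.0166) and 1454635_at, which names no gene (0.76, adjusted p = 0.0359). For *Ccnb2* and *Krtap4-16* the difference against FC was -0.34 and 0.27 (adjusted p = 0.827 and 0.731), and the BF and FC tongues lay on one side of every BG tongue for both genes. Among the 36 positive probe sets the FC TN mean was below the BG TN mean in 31, and the FC LD mean was above the BG LD mean in 30 but below the BF LD mean in 34.

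The genes that were also followed by qPCR are given whatever their result here. Of 10 such genes 8 had a probe set naming them. Both *Fbxo32* and *Sesn1* passed in the difference, and the 6 others passed in LD on at least 1 probe set but not in the difference. One of these, *Synj2*, passed in LD on 1 of its 6 probe sets and is described with the genes of both muscles. The gene *Lcn2*, which encodes the iron-carrier-binding protein lipocalin 2, read 9.50, 8.54, 10.15, 9.69 and 10.68 in BF LD, against 6.09, 5.58, 5.96, 5.73 and 7.86 in BG LD. It read 7.26, 7.04 and 7.04 in BF TN, against 6.19, 5.90 and 6.04 in BG TN. BF was above BG without overlap in both muscles. The responses of 3.47 and 1.07 in LD and TN gave the largest difference of the named genes, 2.40, with a 95% confidence interval of 1.21 to 3.59 and an adjusted p of 0.0854. Without BG LD replicate 5, whose 7.86 was the highest of its group, the difference was 2.8 (adjusted p = 0.00496), and without BF LD replicate 2 it was 2.69 (adjusted p = 0.0438). It also passed with the replicate number as a block within muscle (2.40, adjusted p = 0.0243) and with array weights (2.95, adjusted p = 0.00357). *Gsk3b*, the kinase that inhibits glycogen synthase, had 1.09 in LD and 0.51 in TN, a difference of 0.58 (0.03 to 1.13, adjusted p = 0.383). *Prkcd*, protein kinase C delta, had 1.11 and 0.46, a difference of 0.65 (-0.12 to 1.42, adjusted p = 0.496). *Pik3r1*, the regulatory subunit of the insulin-responsive PI3 kinase, had 1.28 and 0.84 with its brightest probe set, a difference of 0.44 (-0.48 to 1.36, adjusted p = 0.725). Its 2 other probe sets gave 0.79 and 1.36 (adjusted p = 0.288 and 0.236), both at an unadjusted p under 0.05. *Keap1*, the inhibitor of the antioxidant factor NRF2, had 0.42 and 0.20 with its brightest probe set, a difference of 0.22 (-0.14 to 0.58, adjusted p = 0.632), and 1.01 and 0.46 with its other probe set, a difference of 0.56 (adjusted p = 0.424). The intervals of *Prkcd* and *Keap1* held 0, as did that of the brightest probe set of *Pik3r1*, and those of *Lcn2* and *Gsk3b* did not.

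**Figure D3:**
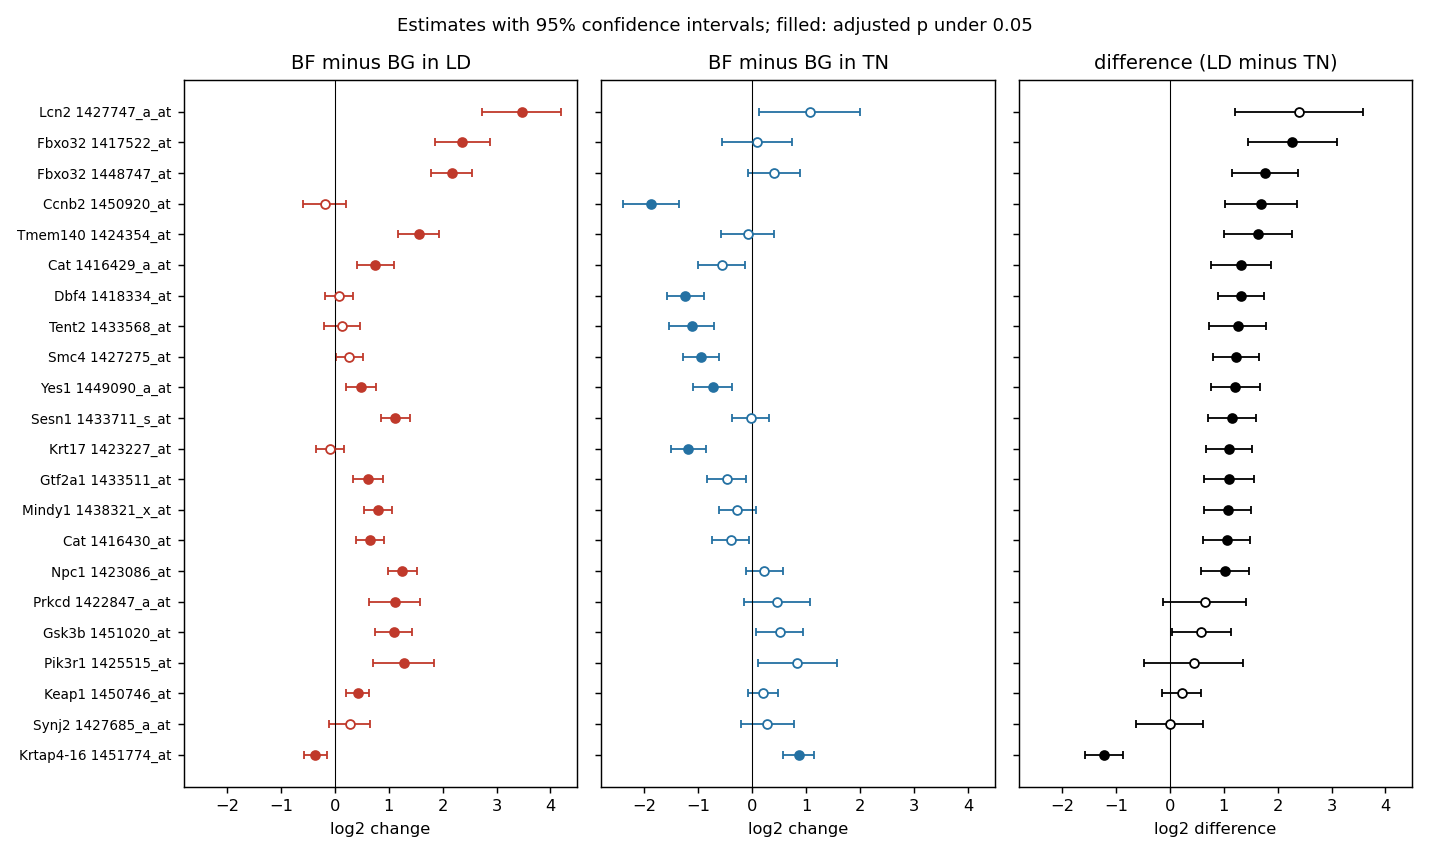
Response to flight in LD and in TN, and their difference, for the named genes (log2, one probe set a line, points are estimates, bars are 95% confidence intervals, filled points passed an adjusted p of 0.05). The intervals of *Lcn2* and *Gsk3b* exclude 0 in the difference without passing after adjustment over 22626 probe sets.

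Most genes that passed in both muscles moved the same way. Of the 22626 probe sets, 74 passed the adjusted p in LD and again in TN. Of these 74, 53 were higher and 19 lower with flight in both, and the 2 others were *Yes1* and *Krtap4-16*. Over all probe sets the responses in LD and TN had a Pearson correlation of 0.34. The share of all probe sets with the same sign in both muscles was not counted, so the same-sign counts given here have no background beside them. Among the 96 probe sets past both criteria in LD, 82 had the same sign in TN, 6 passed in the difference and 60 had an unadjusted p under 0.05 in it. Among the 50 in TN, 42 had the same sign in LD and 5 passed in the difference. A response that passed in LD alone therefore was in most cases not shown to differ from that in TN. *Nfic*, *Tns1* and *Synj2* are the genes that the study listed for both muscles. *Tns1*, which encodes the focal adhesion protein tensin 1, had 1.07 in LD and 1.04 in TN with probe set 1449405_at, a difference of 0.03 (95% confidence interval -0.47 to 0.54), and -0.15 with its other probe set. *Synj2*, a phosphoinositide phosphatase gene, had 1.14 in LD and 1.24 in TN with probe set 1431697_at, a difference of -0.10 (-0.69 to 0.49), and its 6 probe sets lay between -0.17 and 0.14. *Nfic*, a CCAAT-binding transcription factor, had differences of -0.76 to -0.53 on its 4 probe sets. The one at -0.76 (1450661_x_at, 0.50 in LD and 1.26 in TN) had an unadjusted p of 0.0091 and an adjusted p of 0.25.

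By gene group, the largest positive median differences were those of mitosis and of glucocorticoid-responsive genes, and the largest negative one was that of interferon-responsive genes. Over all 12393 genes, each taken with its brightest probe set, 15 were positive and 1 negative past the adjusted p, and the median difference was -0.03. Of these genes 45.2% had a positive difference, and 11.8% had an unadjusted p under 0.05 in it. In LD 6.06% of them passed and were higher with flight and 4.48% lower, and in TN 0.323% were higher and 0.508% lower. Gene lists numbered 34, and are described by counts and medians, with no test of a list. The lists were chosen with earlier results of these data known. Their shares beside those of all genes are therefore a description and not separate evidence. A total of 8 genes in 9 of the lists passed, and members named beside these were chosen after their values were seen.

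Of 29 glucocorticoid-responsive genes, 2 passed, *Fbxo32* and *Sesn1*, both positive. The median difference was 0.66, with 24 positive (45.2% of all genes were). In LD 14 of the 29 were past the adjusted p and higher with flight, against 6.06% of all genes, and 0 lower (median 0.63). In TN the median was 0.01, and 1 gene passed, *Fkbp5*, the immunophilin that binds the glucocorticoid receptor (1.49 in LD and 1.11 in TN, a difference of 0.39). The 22 measured atrophy and FoxO targets gave a median difference of 0.45, with 18 positive and the same 2 genes past. Their median response was 0.61 in LD, where 12 were higher and 0 lower, and 0.00 in TN, where none passed. *Gadd45a* (0.96, adjusted p = 0.0726), *Foxo3* (0.71, 0.0912) and *Cdkn1a* (1.29, 0.184) were the positive members named here that did not pass. Both lists hold *Fbxo32* and *Sesn1*, and the 18 p53 targets and sestrins (median difference 0.18, and 0.11 to 0.28 with 1 array left out) hold *Sesn1* as well, so the counts are not separate results.

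Of 36 mitosis genes, 1 passed in the difference, *Ccnb2*. The median difference was 0.80, 32 were positive, and 24 had an unadjusted p under 0.05, against 11.8% of all genes. The median response was -0.13 in LD, where 2 were lower with flight, and -0.99 in TN, where 17 of the 36 passed and were lower, against 0.508% of all genes. Because this list was chosen with earlier results of these data known, a share above that of all genes could arise from the choice. *Ect2* (-2.06 in TN, difference 1.95), *Ube2c* (difference 1.4), both at an adjusted p of 0.0608, and *Cenpa* (1.5, adjusted p = 0.0798) came next. The median of the same list was 0.01 in the difference against FC and 0.60 in that of FC minus BG. By contrast, the 29 genes of DNA replication had a median difference of -0.06 with *Dbf4* alone past, and the 30 oral epithelium genes had -0.10 with *Krt17* alone past. With 1 array left out the first median was between -0.20 (without BG TN replicate 3) and 0.13 (without BG TN replicate 2), so it had no settled sign, and the second was between -0.15 and -0.04.

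*Cat* was the gene past among 18 NRF2 and antioxidant genes (median difference 0.36, 0.24 without BG TN replicate 3, and 8 higher in LD), and *Npc1* was the gene past among 19 of autophagy and lysosome (median 0.14, 0.24 without BG LD replicate 5 and 0.23 without BF TN replicate 1). None passed among 19 genes of iron, zinc and metal handling (median 0.45, 7 higher and 1 lower in LD), of which *Slc39a14*, a zinc and iron importer, came closest (1.30, adjusted p = 0.061). Among the 31 proteasome subunits none passed, 28 had a positive difference, and the median was 0.14, or 0.24 without BF TN replicate 2. Among 26 genes for the insulin pathway and glucose transport none passed, and their median difference was 0.04, or 0.01 to 0.11 with 1 array left out.

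Other lists leaned the opposite way. Of 24 endoplasmic reticulum chaperones and folding enzymes none passed in the difference, and the median was -0.27, or -0.16 without BG LD replicate 5. In LD 10 of them passed and were lower with flight and 2 were higher, against 4.48% and 6.06% of all genes (median -0.35), and in TN none passed (median 0.02). *Manf* (-1.25, adjusted p = 0.0593), *Creld2* (-1.10, 0.0608), *Pdia6* (-0.80, 0.0664) and *Hspa5*, the main chaperone of that compartment (-0.80, 0.11), were nearest to the threshold or best known. Of 19 interferon-responsive genes, *Tmem140* was the only one with a positive difference, and the other 18 were negative (median of all 19 -0.68, 6 of the 18 at an unadjusted p under 0.05). The median response of the list was -0.29 in LD and 0.40 in TN, and 1 gene passed in LD, *Tmem140*, and none in TN. Without BF TN replicate 3 the median difference of this list was -0.26. Of 24 macrophage markers 23 had a negative difference and none passed (median -0.27), with medians of -0.61 in LD and -0.31 in TN. Without BG LD replicate 5, the array with the most macrophage transcripts, the median difference of that list was 0.11, and it was between -0.44 and -0.15 without BF LD replicate 1 or 2 or BG LD replicate 3 or 4.

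**Figure D4:**
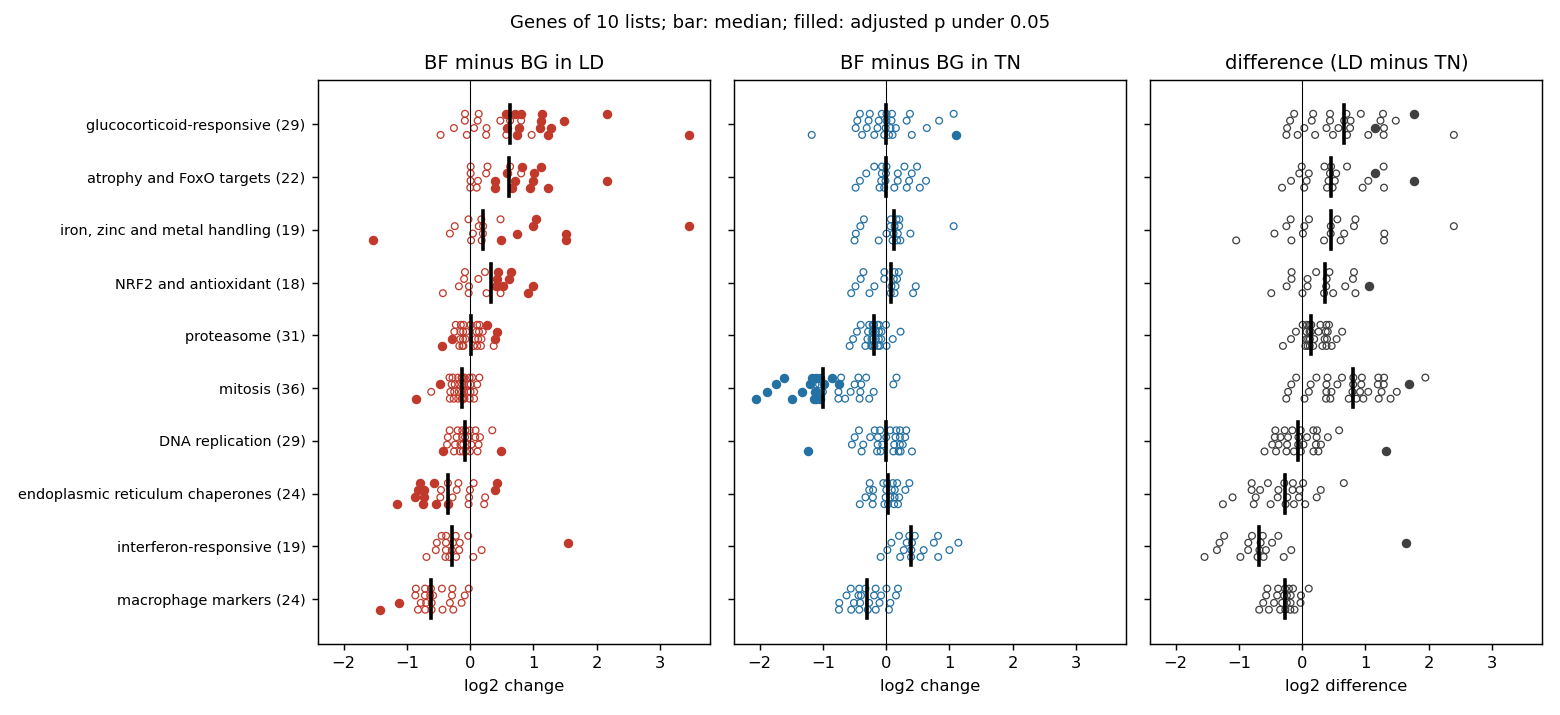
Genes of 10 lists, with the response to flight in LD and in TN and their difference (log2); each point is a gene with its brightest probe set, bars are medians and filled points passed an adjusted p of 0.05. The median of the glucocorticoid-responsive genes lies above 0 in LD, where 24 are positive and 5 negative, and near 0 in TN. The median of the mitosis genes lies near 0 in LD and below 0 in TN.

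The number of probe sets that passed depended strongly on single arrays. Fits without 1 of the 23 arrays gave 0 to 375 probe sets past the adjusted p. The count was 0 without BG TN replicate 1 (limma, with 1976 probe sets at an unadjusted p under 0.05), 2 without BF TN replicate 3, 3 without BG LD replicate 3, 6 without BF LD replicate 4 and 7 without BF LD replicate 3. It was 375 without BG LD replicate 5, 151 without BG TN replicate 3 and 125 without BF TN replicate 2. Without BG LD replicate 5 all 39 probe sets were among the 375. No probe set of the 39 kept its call in all 23 of these fits, and all 39 kept their sign in every one. *Krtap4-16* passed in 22 of the 23 (largest adjusted p 0.067), *Dbf4* and *Zfand5* in 21, and *Fbxo32* (1448747_at), *Smc4* and *Rnf138* in 20. *Sesn1* passed in 16, *Ccnb2* in 11, *Npc1* in 8, and the second probe set of *Cat*, *Tent2* and *Gtf2a1* in 6. The difference of *Fbxo32* stayed between 1.59 and 1.92 and that of *Ccnb2* between 1.41 and 2.17. The median difference stayed between 0.53 and 0.73 for the glucocorticoid-responsive list and between 0.60 and 1.0 for mitosis, whose members past in TN numbered 2 to 25 (2 without BF TN replicate 1 or BG TN replicate 1). With the arrays of each muscle quantile-normalized anew, 17 probe sets were positive and 6 negative, against 36 and 3 with the deposited values.

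**Figure D5:**
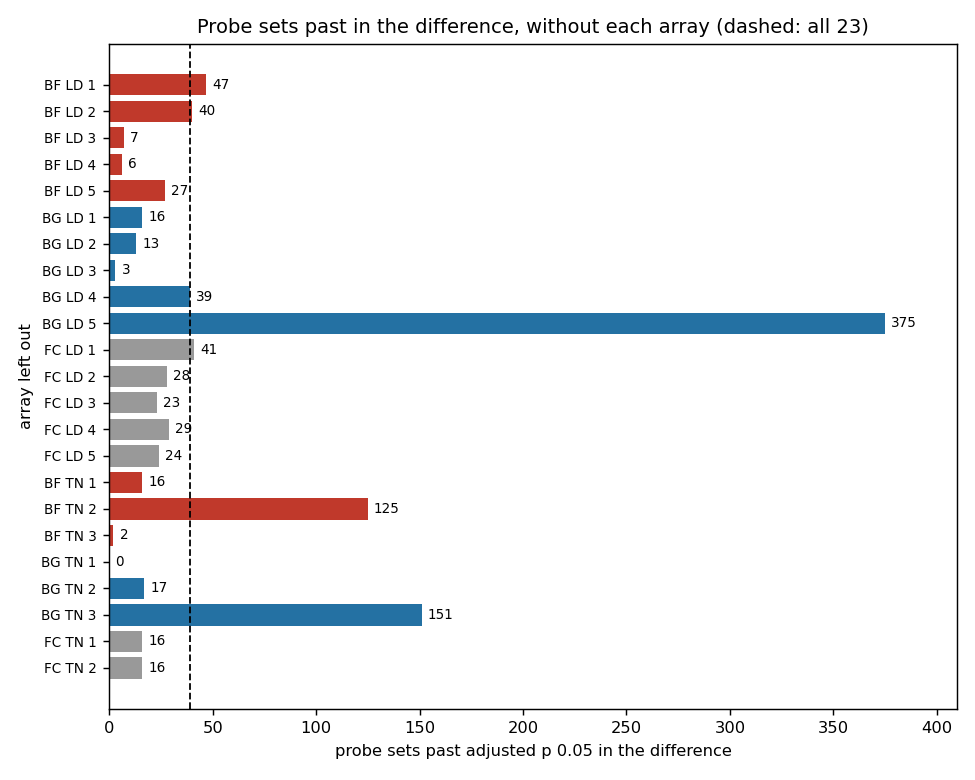
Number of probe sets past an adjusted p of 0.05 in the difference when 1 array at a time is left out (bars, array left out on the y axis), with the number from all 23 arrays as a dashed line (39). The count is 0 without BG TN replicate 1 and 375 without BG LD replicate 5.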

How the data were processed

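RNA of LD (5 BF, 5 BG, 5 FC samples) and TN (3 BF, 3 BG, 2 FC) was hybridised to Affymetrix Mouse Genome arrays, 1 per sample. The deposited log2 values were made by the authors with RMA in Partek Genomics Suite (background correction, quantile normalization, summary per probe set). RMA fits all arrays together, which can move values of one muscle with those of the other. The values carry no detection calls, and the scanned intensities were not used.

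For each of the 22626 probe sets, limma 3.58.1 (R 4.3.3) fitted the means of the 6 groups on 23 arrays (17 residual degrees of freedom, prior 5.12). P-values of the moderated test were adjusted by Benjamini-Hochberg across every probe set. A model of both muscles was used because the question is their difference. The call was an adjusted p under 0.05, with or without a difference over 2-fold. The labels number the samples of each group, but do not state separate extractions or litters, so p-values measure the spread between these samples. No 2 columns held identical values (0 pairs). Of the probe sets, 20380 name 1 gene, 691 several and 1555 none in the platform annotation, and the first kind is named. Lists were taken with the brightest probe set per gene (12393 genes).

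Genes named were the 12 with the largest positive and up to 12 with the largest negative called differences, up to 2 members past the adjusted p of each list, the qPCR genes of the study, and *Nfic*, *Tns1* and *Synj2*. The members and lists were chosen with earlier results of these data known. On simulated data (5 runs, 22626 probe sets, each with its SD within the real groups) the difference recovered 71.6% of probe sets changed by 1 in LD and 70% of those changed by 1 in TN. It recovered 97.6% and 98.4% of those changed by 2 in LD and in TN. Of the passes 4.09% were false, and 0 passed where nothing was changed. The simulated noise was normal and independent between probe sets, with no deviating array and no shift shared by many probe sets. These rates therefore need not hold for the real arrays. Alternatives were the 16 arrays alone, no or robust moderation, brighter probe sets, other normalizations, array weights, the replicate number as a block, 1 probe set per gene, and each array left out. Motifs and coordinates come from RefSeq (GRCm38.p6); figures were drawn with matplotlib 3.10.9.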

Additional observations from a re-analysis of the deposited data

Results flagged for a closer look

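In 16 probe sets of the named genes the 2 muscles differed in their response by the test of the difference itself. The values were 2.27 and 1.76 for *Fbxo32*, 1.69 for *Ccnb2*, 1.64 for *Tmem140*, 1.32 and 1.05 for *Cat*, 1.32 for *Dbf4*, 1.26 for *Tent2*, 1.23 for *Smc4*, 1.21 for *Yes1*, 1.15 for *Sesn1*, 1.10 for *Krt17*, 1.09 for *Gtf2a1*, 1.07 for *Mindy1*, 1.03 for *Npc1* and -1.22 for *Krtap4-16*. All are log2 differences, LD minus TN, at an adjusted p under 0.05 (limma).

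In 5 of 99 groups of 5 arrays tested, 1 array stood far from the rest of its group, where chance alone gives about 1 in 20. *Sesn1* was at 9.31 in BG LD replicate 4, with the next value at 9.14. *Lcn2* was at 7.86 in BG LD replicate 5, above the next value of 6.09. *Gsk3b* was at 8.16 in FC LD replicate 4, below the next value of 8.62. *Synj2* (1427652_x_at) was at 4.94 in BF LD replicate 2, below 5.51, and *Nfic* (1435527_at) was at 10.50 in BF LD replicate 3, below 10.89.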

How the results depend on the processing

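With 20 called probe sets, 39 past the adjusted p (29 in LD only, 8 in TN only), 96 called in LD, 50 in TN, 15 past against FC and 8 list genes as the main values, these changed. With the 16 BF and BG arrays alone they were 4, 4 (3 and 1), 21 in TN and 2 list genes. Without moderation they were 4, 14 (10 and 3), 27 in TN, 4 against FC and 1 list gene. The brighter probe sets gave 5 in TN only, 16 called in TN and 3 against FC. Quantile normalization within each muscle gave 23 past (14 in LD only), and median centring 24 (15). Array weights gave 191, 1051 (560 and 327), 136 in TN, 105 against FC and 63 list genes. One probe set per gene gave 10, 11 (6 and 3), 54 in LD, 27 in TN and 0 against FC (limma). Without each array in turn the ranges were 0 to 93 called, 0 to 375 past, 0 to 272 in LD only, 0 to 75 in TN only, 84 to 125 in LD, 9 to 178 in TN, 1 to 18 against FC and 0 to 36 list genes. Leaving out FC TN replicate 1 or 2, which enter the spread alone, gave 16 past each, and leaving out BF TN replicate 1 or BG LD replicate 1 gave 16 as well.

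With the replicate number as a block within each muscle, 51 were called, 129 past (78 and 43), 8 against FC and 26 list genes. As a random replicate block across the muscles (correlation -0.0231) 25 were past (18 and 5). The numbers were not taken to pair the samples, since no label says so and the deviations of same-numbered arrays correlated over 0.1 in only 8 of 15 pairs in LD, 3 of 7 in TN and 2 of 8 between the muscles. Their mean correlation was 0.136 in LD (-0.218 to 0.545), 0.111 in TN (-0.098 to 0.383) and 0.009 between the muscles (-0.136 to 0.168), against -0.032, -0.054 and -0.002 for arrays of different number. In LD 8 of 15 arrays and in TN 4 of 8 correlated best with one of their own number. Of 1064 values of named genes under the 33 alternatives, 878 kept direction and call, 182 lost the call, 4 gained it (all *Lcn2*) and 0 reversed. The cause of these changes was not tested.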
